A study of Mus musculus with 20 samples.

Results

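Spliced lincRNA loci that stretch over more than 100 kb of a mouse autosome are described here. lincRNAs are long non-coding RNAs made from loci between protein-coding genes. A locus was included when the deposited catalogue placed it on chromosomes 1 to 19, when the distance from its first to its last catalogued base exceeded 100 kb, and when at least 1 of its transcripts had more than 1 exon. Of 29286 catalogued loci, 261 met these conditions, which is 2.01% of the 12960 spliced autosomal loci. The catalogue gives positions of exons, strand and identifiers, and no value for any library, so the lengths and positions below are single annotated values with no replicate error, and read depth is unknown.

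The study sequenced 20 libraries of RNA pulled down with EdU-labelled DNA. The cells were mouse embryonic stem cells and NIH3T3, an established mouse fibroblast line, all labelled wild-type. EdU, a thymidine analogue taken up during DNA synthesis, was given for 10 min, cells were fixed with 1% formaldehyde, and biotin azide at 10 µM was then clicked onto the EdU so that the DNA and its attached RNA could be pulled down. Each cell type had 5 groups of 2 libraries: a no-click control with DMSO in place of biotin azide, a normal click group, and click groups named HU, chase and protease, which carry a hydroxyurea label of 4 mM for 4 h. NIH3T3 cells were also synchronised with thymidine and released. Whether replicate libraries are separate cultures is not given. The catalogue is tied to no single library, so no cell type or treatment could be compared.

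An intron is transcribed with its gene and then cut out, so a locus can cover a long stretch of chromosome while its mature RNA stays short. Long introns take a long time to transcribe, and they can hold other genes, among them microRNAs that are processed out of the host's transcript. In mammals, very long introns are best known from genes of neurons and cell adhesion and from loci prone to breakage when DNA replication is slowed.

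Mature microRNAs inside these introns are shown first, since 2 related clusters sit in introns of included loci. Members were tied to GENCODE M21 genes (GRCm38) when a consecutive intron, exon and intron had the same 3 lengths in both, with chromosome and strand also the same, since the catalogue is on mm9. Mature microRNA sequences are from RefSeq (GRCm38.p6), 5′ to 3′, with the seed, bases 2 to 8, in capitals. In Mir99ahg, an intron of 73393 bp holds miR-99a (chr16:77598940-77598961), let-7c (chr16:77599672-77599693) and miR-125b-2 (chr16:77646279-77646300), all on the plus strand. In 3110039I08Rik, on the plus strand, an intron of 84359 bp holds miR-100 (chr9:41531437-41531458), let-7a-2 and a copy of miR-125b (chr9:41581940-41581961), and in another isoform this miR-125b lies in an intron of 8571 bp.
mmu-miR-99a-5p: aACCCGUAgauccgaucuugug
mmu-miR-100-5p: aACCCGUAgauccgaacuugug
mmu-let-7c-5p: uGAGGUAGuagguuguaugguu
mmu-miR-125b-5p: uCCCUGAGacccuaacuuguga
The miR-99a and miR-100 seeds are the same letters, and the miR-125b-5p made from both loci is the same RNA.

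Further members hold other families. Gm4258, on chromosome 1, holds miR-181a-1 (chr1:137966468-137966490) and miR-181b-1 (chr1:137966650-137966673) in an intron of 69152 bp, and these also share a seed. A230057D06Rik, on the minus strand of chromosome 7, holds 7 genes of the miR-344 family with 12 named mature RNAs, 6 of them from the 5′ arm. Of these 6, 4 share a seed, and miR-344e-5p and miR-344h-5p have another. The latter pair have the same sequence throughout, which is printed for comparison under miR-344e-5p.
mmu-miR-181a-5p: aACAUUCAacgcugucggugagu
mmu-miR-181b-5p: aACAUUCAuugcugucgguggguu
mmu-miR-344-5p: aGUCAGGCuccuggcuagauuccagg
mmu-miR-344b-5p: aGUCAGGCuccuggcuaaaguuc
mmu-miR-344c-5p: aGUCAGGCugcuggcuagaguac
mmu-miR-344d-3-5p: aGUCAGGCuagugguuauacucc
mmu-miR-344e-5p: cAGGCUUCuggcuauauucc
Of 151 loci with a single matched gene, 145 were searched, which found 21 RefSeq microRNA genes within 9 genes. Of these, 19 lay on the strand of their gene, in 7 genes, and each of the 19 fell within an intron whose length equals that of an intron in the catalogued locus. The exceptions, on the other strand, were Mir7211 in Tmcc3 and Mir6372 in 5730522E02Rik. These are annotated positions: no microRNA was measured.

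The joins made by removing the longest introns are shown next, because they are the only bases by which a mature RNA records such an intron. Each line gives 15 bases from each side of the join in the GENCODE transcript (GRCm38), 5′ to 3′, with the last 3 bases of the upstream exon and the first 3 of the downstream exon in capitals. Pvt1, a locus beside the growth regulator Myc, joins across an intron of 137265 bp (chr15:62038202-62175466, plus strand). The Mir99ahg join spans 140784 bp (chr16:77360719-77501502, plus strand), that of Gm20754 spans 320038 bp (chr3:73239411-73559448), and that of Gm32647 spans 359851 bp (chr7:94346367-94706217). On the minus strand, the join of Gm28928 spans 335421 bp (chr1:124510298-124845718).
Pvt1: tggatccaccctCTTTATaccctttaagcg
Mir99ahg: ccataccctgtcATGCATaccagaatagga
Gm20754: caggactgtaggCAGCCTgtttatgccatt
Gm32647: ggaaagcatcgaCTGATCactccaggtagc
Gm28928: tccaagaccatcAAGAGTtaagaacaaaga
Exons commonly end in AG before a splice site. Across the 118 longest introns whose join could be read, the upstream exon ended in AG in 62 (52.5%, 95% exact binomial interval 43.1 to 61.8), against 55.1% of 270363 GENCODE introns of 30 nt or more. The downstream exon began with G in 42 (35.6%, 27.0 to 44.9), against 47.8% of all and 46.9% (42.9 to 51.0) of the 601 GENCODE lincRNA introns of 50 kb or more. The interval of the first share holds that of the whole set, and the interval of the second lies below it. The latter interval overlaps that of the 601 lincRNA introns. The joins were read from GENCODE transcripts, so the compared sets share introns.

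The 261 loci divide evenly by strand, with 130 on plus and 131 on minus, and carry 932 transcripts. Their span had a median of 150988 bp (quartiles 124061 and 242961). Of them, 88 exceeded 200 kb, 15 exceeded 500 kb and 3 exceeded 1 Mb. Merged, they cover 54.8 Mb, or 2.27% of the autosomal stretch between the first and last catalogued loci. No unspliced autosomal locus came near the limit, the longest reaching 12530 bp. A further 13 spliced loci over 100 kb lie outside the autosomes, 9 of them on X. Per chromosome, the share of spliced loci that were this long ran from 3 of 587 on chromosome 17 (0.511%, 0.106 to 1.49) to 27 of 718 on chromosome 3 (3.76%, 2.49 to 5.42). Intervals are exact binomial ones at 95% unless named otherwise. They cover counting error alone, and they treat loci as separate although neighbours and loci within 1 host are not independent.

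The limit itself cuts through a continuous range. The 3 loci just inside were NONMMUG041552 (100001 bp, chromosome 8, 111671867 to 111771867), NONMMUG041789 (100090 bp) and NONMMUG002881 (100339 bp). Positions of catalogued loci are on mm9 here and below, whereas those of microRNAs and joins above are on GRCm38. Just outside were NONMMUG001336 (99880 bp), NONMMUG019541 (99856 bp) and NONMMUG038206 (99840 bp). The longest introns of the former measured 95179, 96724 and 96397 bp, and those of the latter 44074, 44361 and 57356 bp. Spans and intron lengths of a locus are tied by construction, so the lengths that follow are a description.

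A long locus was mostly 1 intron. The longest intron had a median of 121183 bp (95% order-statistic interval 111820 to 131150, quartiles 94507 and 170652, range 15450 to 801273), against 15714.5 bp in 3194 spliced loci of 10 to 100 kb and 1123 bp in 9505 spliced loci of up to 10 kb. As a share of the span this was a median of 78.6% (quartiles 54.0 and 96.3), against 81.5% and 50.2% in the shorter classes. The share was no larger than in loci of 10 to 100 kb. In 209 of 261 loci (80.1%) the longest intron took more than 50% of the span, against 86.2% and 50.2% in the shorter classes. It took more than 90% in 97 (37.2%), against 35.4% and 7.18%. In 182 (69.7%) it alone exceeded 100 kb. Of 1832 distinct introns, 257 exceeded 100 kb. Another 39 (2.13%) were under 30 nt, shorter than the introns that splicing is known to remove. They lay in 23 loci (8.81%), against 2.13% and 6.82% of loci in the shorter classes. A locus with more introns has more places for such a gap, and the classes were not matched for number of introns.

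**Figure D1:**
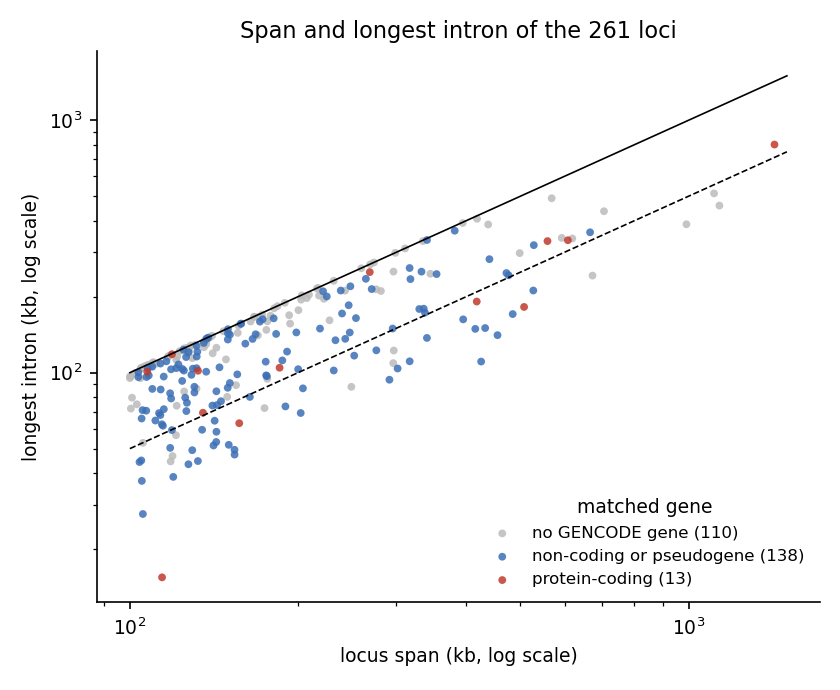
Each point is 1 of the 261 loci, with its span in kb on the x axis and its longest intron in kb on the y axis, both on log scales; the solid line marks an intron as long as the locus and the dashed line 50% of it, and colours give the type of the matched gene. In 209 loci the point lies above the dashed line, and Lsamp, at 1425167 bp, has both the largest span and the longest intron.

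In the 5 loci of greatest span, the longest intron took less of the span than the median of 78.6%. In the order below, the shares were 56.2, 40.4, 46.2, 39.1 and 61.8%. Lsamp, which encodes a cell adhesion protein of neurons, was matched by NONMMUG016475 (chromosome 16, 39984499 to 41409665, plus, mm9), which spans 1425167 bp. Its introns measure 801273, 619881 and 2716 bp in 1 transcript and 277540 and 393342 bp in another. NONMMUG017009, on the same chromosome (79943590 to 81079294, plus), spans 1135705 bp with 11 exons and a longest intron of 459263 bp. NONMMUG027689 (chromosome 3, 111220198 to 112331135, minus) spans 1110938 bp, and both of its transcripts contain the longest intron of 513209 bp. NONMMUG003390 (chromosome 10, 36907414 to 37898838, minus) spans 991425 bp with a longest intron of 387238 bp, and NONMMUG019426 on chromosome 18 spans 705767 bp with 1 of 436114 bp. In NONMMUG001456 (chromosome 1, 100979310 to 101548210, plus), which is not among these 5, an intron of 490938 bp makes up 86.3% of the span.

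The mature RNAs were short beside their spans but had more exons than those of shorter loci. One transcript per locus, the one with the greatest span, was used as its reference transcript. These had a median of 4 exons (quartiles 3 and 6, at most 26), against 3 and 2 in the shorter classes. Models of 2 exons made up 44 of 261 (16.9%), against 34.9% and 74.6%, and models of 10 or more exons made up 14 (5.36%), against 0.877% and 0.0210%. The mature RNA had a median length of 1155 nt (quartiles 629 and 2094, range 203 to 8175), against 949.5 and 759 nt. It came to a median of 0.627% of its span, against 4.35% and 41.0%. First exons had a median of 144 nt, internal exons 111 nt (n = 729) and last exons 455 nt, against 150.5, 125 and 413 nt in loci of 10 to 100 kb. The median of internal exons (106 to 115) was below that of loci of 10 to 100 kb (122 to 127) and of up to 10 kb (130 nt, 127 to 133). These 95% order-statistic intervals pool exons and treat those of 1 transcript as separate, so many-exon models weigh more. Whether loci differ was not tested. The last exon was longer than the first in 73.2%, against 74.3%. In 12 of 261 reference transcripts an exon was under 10 nt.

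At the many-exon end stood Ccdc7a, a coiled-coil protein gene matched by NONMMUG041996 on chromosome 8. This locus had 26 exons, and its longest intron, at 15450 bp, took 13.5% of a span of 114184 bp. That span is 34.5% of the 331283 bp of the GENCODE gene. The next most were 22 exons in Gm9801 (NONMMUG038198, chromosome 7), 19 in 6530403H02Rik (NONMMUG027776, chromosome 3), 15 in A230006K03Rik (NONMMUG038178, chromosome 7) and 12 in NONMMUG014123 (chromosome 15, 18007892 to 18299382, minus).

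The place of the longest intron was read from the 5′ end in the 161 reference transcripts with 3 or more introns. It was the first intron in 44 (27.3%, 20.6 to 34.9), internal in 86 (53.4%, 45.4 to 61.3) and the last in 31 (19.3%, 13.5 to 26.2). In 1140 loci of 10 to 100 kb these shares were 32.5, 45.3 and 22.3%, and in 686 of up to 10 kb 32.2, 38.2 and 29.6%. The internal share rises with the number of introns whatever their order, and long loci have more introns, so counts at a fixed number are given. With 2 introns the longer was the first in 36 of 56 (64.3%, 50.4 to 76.6), against 54.5% and 51.9%. With 3 introns it was the first, middle or last in 17, 14 and 17 of 48, a first share of 35.4% (22.2 to 50.5) against 39.0 and 35.1%. With 4 introns the counts in order were 14, 11, 4 and 10 of 39, a first share of 35.9% (21.2 to 52.8) against 27.7 and 33.3%. With 5 introns they were 5, 13, 6, 3 and 3 of 30, a first share of 16.7% (5.64 to 34.7) against 31.8 and 9.76%. The first share was thus above that of loci of 10 to 100 kb with 2 or 4 introns and below it with 3 or 5, and each of these intervals holds the share of that class. A median of 25.8% of the mature RNA's bases lay upstream of the longest intron, against 26.7% and 34.8%.

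**Figure D2:**
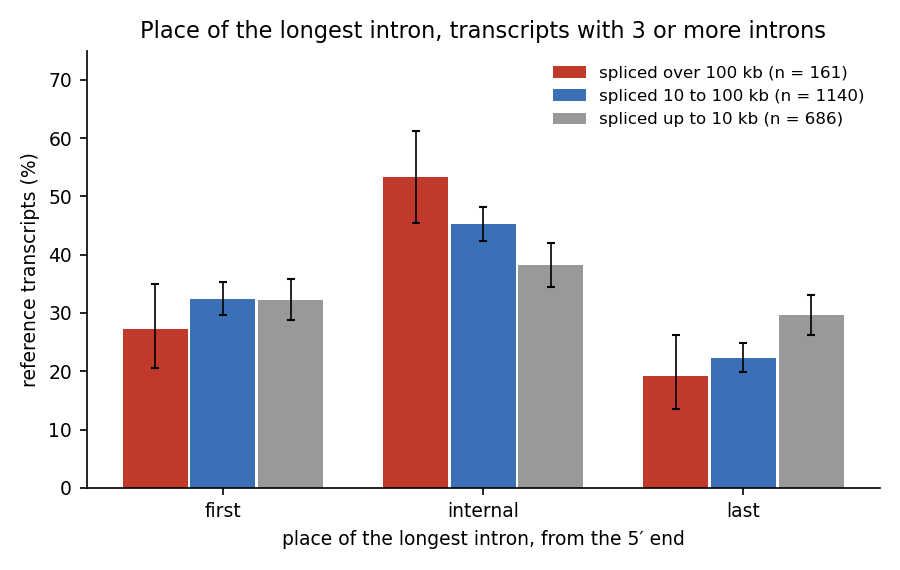
Bars give the percent of reference transcripts with 3 or more introns whose longest intron is the first, an internal or the last one, for 3 span classes, and error bars are 95% exact binomial intervals. The internal share is 53.4% in the loci over 100 kb and 38.2% in those of up to 10 kb, and it depends on the number of introns.

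More than 1 transcript was catalogued for 135 of 261 loci (51.7%, 45.5 to 57.9), against 47.7% of loci of 10 to 100 kb and 22.2% of shorter ones. Loci with 5 or more transcripts numbered 50 (19.2%), against 11.3% and 1.93%. Among the 135, transcript starts fell into more than 1 group, set apart by over 500 nt, in 91 (67.4%), against 66.8% and 45.9%. Ends did so in 123 (91.1%), against 77.0% and 46.5%. The gap of 500 nt was the same at every span, and numbers of transcripts were not matched between classes.

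The longest intron rarely belonged to all isoforms, in these loci and in shorter ones. In 111 of the 135 (82.2%) it was in 1 transcript only, against 1141 of 1522 loci of 10 to 100 kb and 1722 of 2107 of up to 10 kb (81.7%). In 4 (2.96%) it was in every transcript, against 130 of 1522 (8.54%) and 197 of 2107 (9.35%). The classes differ in transcripts per locus, and these were not matched. Among the transcripts without the longest intron, at least 1 still spanned over 100 kb by itself in 42 of the 135 (31.1%), and taken jointly they covered over 100 kb in 61 (45.2%). Of all 932 transcripts, 422 (45.3%) spanned over 100 kb, and 40 had a single exon. In 254 of 261 loci some spliced transcript passed 100 kb by itself.

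**Figure D3:**
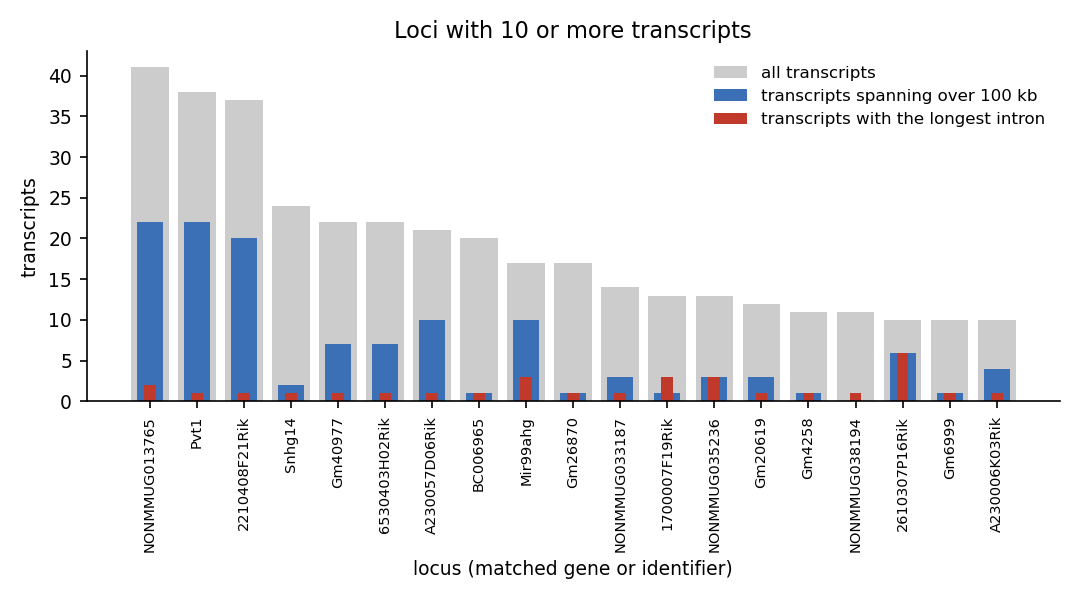
For each locus with 10 or more transcripts, named on the x axis, the wide grey bar counts all transcripts, the blue bar those spanning over 100 kb and the narrow red bar those with the longest intron. Pvt1 has 38 transcripts, 22 over 100 kb and 1 with its longest intron.

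The locus with the most transcripts, NONMMUG013765 (chromosome 14, 111846534 to 112074254, minus), had 41, of which 2 contained its longest intron of 161196 bp and 22 spanned over 100 kb. Pvt1 (NONMMUG014644, chromosome 15, 61869448 to 62209651, plus, 340204 bp) had 38, with starts in 15 groups and ends in 18, and 1 of them held the intron of 137265 bp whose join is printed above. 2210408F21Rik (NONMMUG034895, chromosome 6, 31169939 to 31292095, plus) had 37, and 1 held its intron of 107769 bp. Gm40977 (NONMMUG011194, chromosome 13, 61843220 to 62224688, plus) had 22, and 1 held an intron of 365091 bp, while the GENCODE gene spans 14300 bp.

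Snhg14 is a host of small nucleolar RNAs in an imprinted region. NONMMUG038156 (chromosome 7, 66874528 to 67049575, minus) had 24 transcripts and covered 175048 bp, which is 26.2% of the 667836 bp of the GENCODE gene. Only 2 of those transcripts spanned over 100 kb, and 1 held the longest intron of 110529 bp. A second locus of the gene, NONMMUG038160, spans 38655 bp with 19 transcripts and was too short to be included.

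The introns of 160 of the 261 loci (61.3%) held at least 1 other catalogued locus whole, against 506 of 3194 (15.8%) loci of 10 to 100 kb. There were 396 pairs of host and inner locus, of which 263 had both on the same strand and 133 on opposite strands (66.4% the same, 61.5 to 71.1). In hosts of 10 to 100 kb, 309 of 638 (48.4%, 44.5 to 52.4) were on the same strand. A longer intron has more room: per Mb of intron, the long loci held 7.04 inner loci, shorter hosts 7.76 and the autosomes as a whole 11.5. A locus that overlaps a host exon is not counted as inner, so the last value is not measured alike.

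The share differed with the kind of inner locus. Of single-exon inner loci, 187 of 248 (75.4%, 69.6 to 80.6) were on the same strand, against 76 of 148 spliced inner loci (51.4%, 43.0 to 59.6). Both shares were lower in hosts of 10 to 100 kb. They were 59.5% (209 of 351, 54.2 to 64.7) and 34.8% (100 of 287, 29.3 to 40.7). Without the 5 long hosts that held the most inner loci, the single-exon share was 65.3% (57.7 to 72.4). That interval overlaps the one of the shorter hosts. The spliced share was then 52.4% (43.9 to 60.9), with no overlap. As a local reference, loci in the 100 kb on either side of the hosts were on the host's strand in 294 of 527 (55.8%), with 47.9% upstream and 63.7% downstream. Adjacent autosomal loci of any kind shared a strand in 56.8%. Inner loci had a median span of 2445 bp on the same strand (quartiles 1516.5 and 3536) and of 2500 bp on the opposite strand, where sizes were more spread (quartiles 894 and 6321). Their median position along the intron was 45.6 and 51.2% from its 5′ end.

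**Figure D4:**
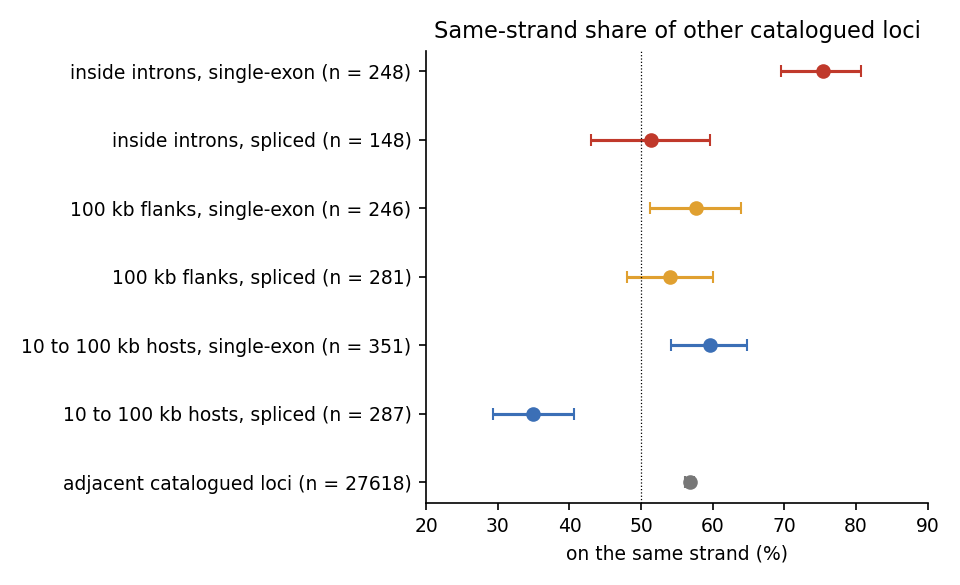
Points give the percent of other catalogued loci on the same strand, with 95% exact binomial intervals, for inner loci of the long hosts (red), loci in their 100 kb flanks (orange), inner loci of hosts of 10 to 100 kb (blue) and adjacent loci (grey); the dotted line marks 50%. Single-exon inner loci of the long hosts are on the host's strand in 75.4%, and spliced ones in 51.4%.

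A few hosts weigh on these counts. By host, 87 of 160 had more inner loci on their own strand, 45 had more on the other and 28 had as many on each. In the 76 hosts with a single inner locus it was on the same strand in 50 (65.8%). Lsamp alone held 31, and without it the share was 232 of 365 (63.6%). The 5 hosts with the most held 80 of 396 pairs (20.2%), and without them it was 188 of 316 (59.5%), with 113 of 173 (65.3%) for single-exon and 75 of 143 (52.4%) for spliced inner loci. Hosts matched to protein-coding genes had 59 of 67 on the same strand (88.1%), or 28 of 36 (77.8%) without Lsamp. Of those 36, B3galt1 held 12, with 11 on its strand, and it was not left out. The share was 71 of 131 (54.2%) in hosts matched to lincRNA genes, and 80 of 136 (58.8%) in hosts with no single match. Hosts matched to any other type, mostly processed transcripts, had 53 of 62 (85.5%), or 27 of 33 (81.8%) without Mir99ahg and 2610307P16Rik.

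All 31 inner loci of Lsamp were single-exon and on its strand, between 473 and 4866 bp long. The intron of 801273 bp contained 26 of them and that of 619881 bp the other 5. Mir99ahg (NONMMUG016963, chromosome 16, 77236562 to 77691648, plus) held 17, of which 15 were on its strand and single-exon, and the 2 opposite ones were spliced. 2610307P16Rik (NONMMUG010559, chromosome 13, 28551903 to 28977291, minus) and B3galt1, a galactosyltransferase gene (NONMMUG023252, chromosome 2, 67403883 to 67911631, plus), each held 12, with 11 on the host's strand. Gm4258 (NONMMUG001897, chromosome 1, 139795166 to 139907935, plus, mm9), the miR-181 host, held 8, with 7 on its strand.

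**Figure D5:**
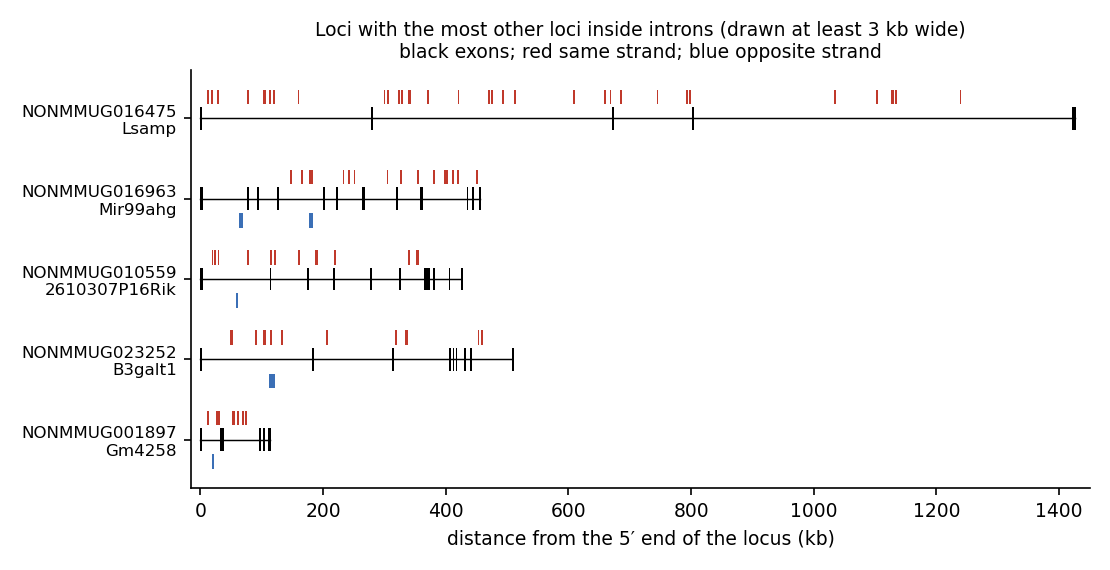
Maps of the 5 loci with the most inner loci, with distance from the host's 5′ end in kb on the x axis; exons are black, inner loci on the host's strand red and those on the opposite strand blue, and short features are widened to be visible. All 31 inner loci of Lsamp are on its strand, and Mir99ahg has 15 on its strand and 2 opposite.

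Included loci also overlapped each other in 15 pairs, 4 on the same strand and 11 on opposite strands, involving 27 loci. The 3110039I08Rik region on chromosome 9 holds 3 of them on the plus strand: NONMMUG042540 (41135200 to 41240162), NONMMUG042542 (41213457 to 41340170) and NONMMUG042544 (41283020 to 41425855). They span 104963, 126714 and 142836 bp. The first and last matched 3110039I08Rik, whose GENCODE span is 389918 bp, and no other gene was matched by more than 1 included locus.

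Of the 222 loci with a transcript of 3 or more exons, 152 shared a run of intron, exon and intron with a GENCODE gene, and none did with the strand swapped. With 1 tie left out, 151 (68.0%) matched a single gene, against 60.7% and 45.7% in the shorter classes. Of the 151 matches, 109 (72.2%) were to lincRNA genes, 22 to processed transcripts and 13 (8.61%) to protein-coding genes, against 4.61% and 6.94% protein-coding in the shorter classes. The locus lay within 1% of the length of its gene in 101 of 151 (66.9%), exceeded it by over 1.5 times in 13 (8.61%) and fell under 75% of it in 23 (15.2%). Of the 13 matched to protein-coding genes, 11 were under 75%, with a median of 42.6%.

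The 13 protein-coding matches were Lsamp, B3galt1, Ccdc7a, Sema6d, Sema3a, Ntrk3, Dab1, Naaladl2, Pde4b, Adamtsl1, Tmcc3, 5730522E02Rik and C530008M17Rik. Among the longer were Sema6d, a guidance cue for axons (NONMMUG024481, chromosome 2, 417733 bp), and Dab1, the adaptor of reelin signalling (NONMMUG030041, chromosome 4, 559163 bp, longest intron 332088 bp). Naaladl2 (NONMMUG026170, chromosome 3, 23703257 to 23838399, minus, 135143 bp) covers 10.0% of its gene's 1346160 bp. Such a locus shares splice junctions with a coding gene, and whether it is a separate RNA was not tested.

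Named gene lists were then looked up. Of 47 listed names of known lncRNAs, 40 were found in GENCODE by symbol, 32 could be tested and 24 matched a catalogued locus. Of these, 4 were long enough: Mir99ahg, Pvt1, Snhg14 and Pantr1 (NONMMUG000504, chromosome 1, 42647616 to 42751670, minus, 104055 bp, 8 transcripts). A gene that GENCODE gives under another name was missed, so 4 is a lowest count. The list holds Mir100hg, but 3110039I08Rik, in which miR-100 lies, was not counted. Rmst, a neural lncRNA, fell just short at 94142 bp. Of 30 long neural genes 1 was matched, Lsamp. Of 19 genes at fragile sites 2 were matched, Lsamp, which is on both of these lists, and Naaladl2. No share over all genes stands beside these counts, so they do not say whether many or few were matched. The lists were drawn up with results of these data known.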

How the data were processed

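For RNA libraries of embryonic stem cells and NIH3T3 cells, the deposited file used is 1 table of exon positions in GTF format, in bp. Its source field names Cufflinks and its score field is empty. Per the submitters' processing notes the build was mm9 and the tools included TopHat2 2.0.8 and Cufflinks 2.1.1. In the sources used here, the selection of models and the use of strand are not given. Without values per library, the grouped samples entered no test.

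Spans, introns, exons, start groups and inner loci were computed with Python 3.11.15, numpy 2.4.6 and scipy 1.17.1. Inner loci lie whole within 1 intron. The microRNA search and the printed joins left out chromosome 18. Matches used GENCODE M21 on GRCm38, and coordinates were never converted between builds. A test on 200 simulated loci of 1 transcript each recovered 6 measures. The gene match was scored on those with 3 or more exons, and inner loci and their strand were checked as totals. Measures over several isoforms were not tested. Genes named were the 5 highest for span, intron, transcripts, exons and inner loci, the 3 loci on each side of the limit, and matches to 3 lists (known lncRNAs, long neural genes, fragile site genes). Other genes, chosen after their values were seen, illustrate sequences, microRNAs and matches. Members and lists were chosen with earlier results of these data known. Alternatives changed the span limit, the transcript taken, short gaps, overlap and matching.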

Additional observations from a re-analysis of the deposited data

How the results depend on the processing

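Of 59 alternative values for 12 results, 40 kept within their error or within 1.5 times the count and 19 moved. Reversal of a result was not scored. Limits of 50 and 200 kb gave 655 and 88 loci and a median longest intron of 62169 and 211433 bp. At 200 kb that intron took 62.9% of the span and 71.9% of inner loci were on the host's strand, and at 50 kb the latter was 60.6% and internal exons had a median of 117 nt. With the transcript of most exons the longest intron was 109400 bp, or 66.1% of the span, and with that of greatest exon length it was 104727 bp, or 61.8%, with a last exon of 637 nt. Counting inner loci by 1 base of overlap gave 60.7% on the same strand and 8.05 per Mb, and spliced inner loci alone gave 51.4% and 2.61. Leaving out the 5 hosts with the most inner loci gave 59.5% and 5.88, and this, leaving out Lsamp and the match on 1 intron of 50 kb or more were chosen after seeing the data, as were the flanks. A match on 1 intron of at least 1000 bp found 194 loci, but 115 with the strand swapped, against 147 and 2 at 50 kb. No paired analysis was possible because the file holds no value per library, and for the same reason no replicate could be left out. Depth is unknown, and a catalogue can join or split transcripts.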
